A study of Mus musculus with 6 samples.

Results

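The transcripts described here were abundant in control C2C12 myoblasts and strongly reduced after knockdown of Setdb1. They were chosen by their measured counts. A transcript was a member if it had at least 50 CPM (its counts scaled to a common library total) in each of the 3 siCTRL libraries, and if its highest CPM in the 3 siSetdb1 libraries was at most 0.5 of its lowest CPM in siCTRL. Where rows of the count table agreed exactly in all 6 libraries, only the first was kept. Of 55419 UCSC transcripts in the table, 3814 were abundant in siCTRL by this definition and 64 of these were members, 1.68% of the abundant transcripts. With identical rows each counted, 71 rows met the rule.

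C2C12 is a mouse myoblast line. All 6 libraries came from this line after transfection of siRNA at 33 nM, with control siRNA (siCTRL, n = 3) or siRNA against Setdb1 (siSetdb1, n = 3). The libraries are labelled Ctl and siRNA. For the Setdb1 experiments the protocol gives a second transfection 24 h after the first, and the cells were processed 72 h after the first. The protocol starts differentiation right after the first transfection, whereas the Results of the study describe these cells as proliferating, so the state of the cells is not settled by the sources. No label says whether the libraries of a group came from separate cultures, so the spread between them may be technical. The study states that its knockdowns used independent siRNAs, and the library titles do not say which of them each siSetdb1 library received.

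Setdb1 is a histone methyltransferase that trimethylates lysine 9 of histone H3, a mark of silent chromatin. It is best known for silencing retroelements and selected genes, often together with the corepressor Trim28. Myoblasts divide as single cells, leave the cell cycle when serum is withdrawn, and then fuse into myotubes while muscle structural genes switch on.

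The table lists UCSC transcript identifiers without gene symbols, and the annotation used here does not pair these. The members are therefore given by identifier for 2 of them and by rank for the others, their roles in the cell are not named, and the level of Setdb1 itself and of muscle marker genes was not analysed here. CPM is not corrected for transcript length, so a rank by CPM is a rank by number of counts and not by number of RNA molecules. In bulk RNA, fewer cells that contain a transcript and less of it in each cell cannot be told apart.

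The library totals lay between 98100142 and 228871500 counts. No count of a member was low. The lowest was 1219 counts, in siSetdb1 replicate 2, for which the exact 95% Poisson interval runs from 1152 to 1289 counts and covers counting error only. When CPM were taken from library totals, the median log2 difference of all tested transcripts (siSetdb1 over siCTRL) was -0.18, against 0.00 after TMM normalisation, which rescales the libraries so that most transcripts show no difference. A transcript at the same TMM-normalised level in both groups therefore has a lower CPM in siSetdb1. Fold changes are given after TMM normalisation.

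Together the members took 0.738%, 0.749% and 0.788% of the counts of siCTRL replicates 1 to 3. They took 0.218%, 0.192% and 0.295% of the counts of siSetdb1 replicates 1 to 3. Summed over the members, siCTRL held 7581 ± 263 CPM and siSetdb1 held 2351 ± 531 CPM (mean and SD of 3 libraries each). The knockdown libraries thus held 31.0% of the control sum, or 34.9% after TMM normalisation. The groups do not overlap, which the rule fixes.

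**Figure D1:**
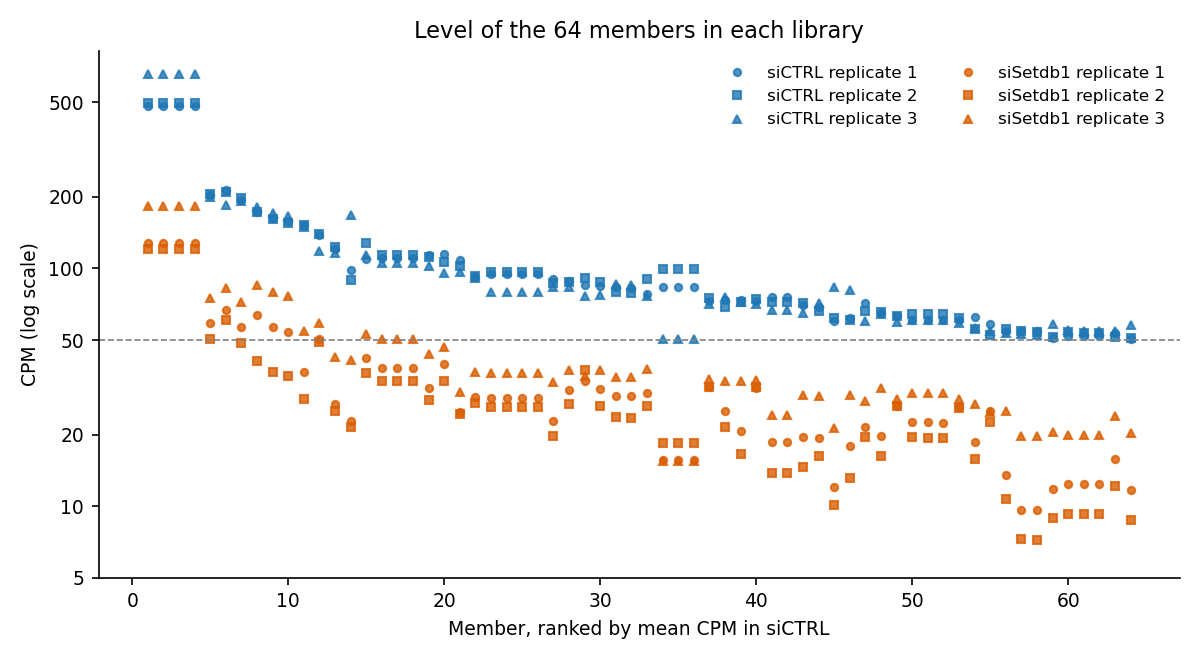
Level of each of the 64 members in each library, in CPM on a log scale, with the members ordered by their mean in siCTRL on the horizontal axis and the dashed line at the minimum of 50 CPM. Blue symbols (siCTRL) lie above orange symbols (siSetdb1) for every member, and the triangle of siSetdb1 replicate 3 is the highest orange symbol for 59 of 64 members.

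None of the members was lost altogether. From the group means of CPM, the members kept between 21.2% and 44.7% of their siCTRL level, with a median of 33.5%. This median was 37.6% after TMM normalisation. The lowest CPM of any member in any siSetdb1 library was 7.21. No transcript met the rule when the highest siSetdb1 CPM had to be at most 0.25 of the lowest siCTRL CPM. These were partial decreases of abundant transcripts.

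The log2 fold change (siSetdb1 over siCTRL) of the members ranged from -2.07 to -0.99, with a median of -1.41 and quartiles at -1.76 and -1.26. Over all 34247 transcripts tested its median was 0.00, and over the other 3750 abundant transcripts it was 0.02. It was -2 or lower for 4 members and -1.5 or lower for 29 members. It lay above -1 for 2 members, although their CPM from library totals met the rule. Fitted with edgeR over all transcripts, the quasi-likelihood test called all 64 members lower, with Benjamini-Hochberg adjusted p-values of at most 0.00426. Of all transcripts tested, 19.7% were called lower. In CPM from library totals, every siSetdb1 library lay below every siCTRL library for all members, by the rule. This also held for 38.5% of all transcripts tested, whose median log2 difference on that scale was -0.18. The members were selected on this same contrast, so these counts describe the selection and are no evidence for it.

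**Figure D2:**
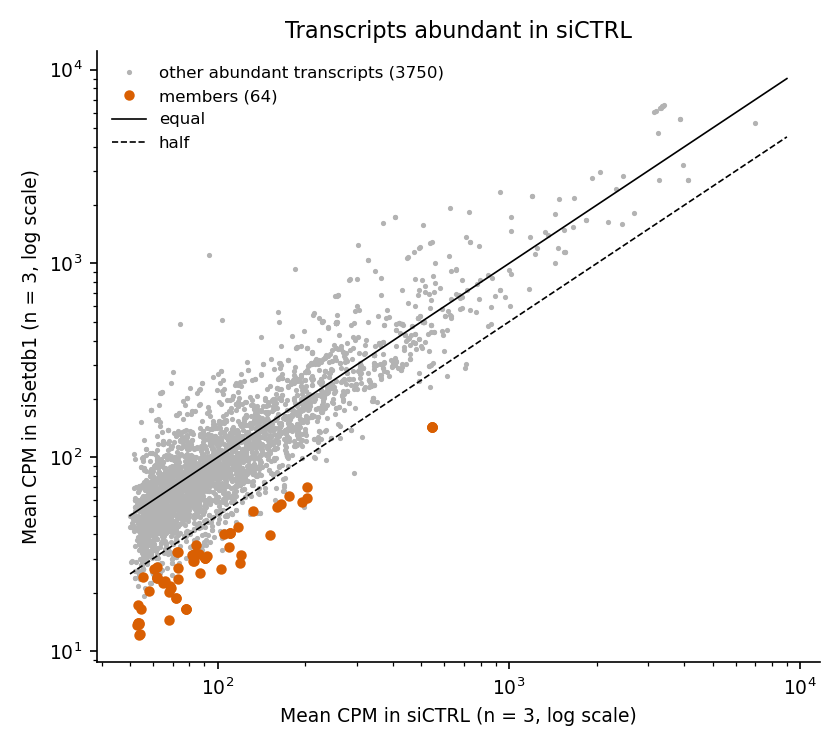
Mean CPM in siSetdb1 against mean CPM in siCTRL (n = 3 libraries each, both axes on a log scale) for the 3814 transcripts abundant in siCTRL. The 64 members (orange) lie below the dashed line of 0.5 times the control level, and the other 3750 transcripts (grey) lie on both sides of the solid line of equal levels. Some grey points also lie below the dashed line, since the rule uses the most extreme libraries and not the means.

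In the edgeR fit to all 6 libraries the fall was largest for uc007brp.2, only just ahead of the next member (-2.06). It had 60.0, 61.6 and 83.1 CPM in siCTRL replicates 1 to 3. It had 12.1, 10.2 and 21.3 CPM in siSetdb1 replicates 1 to 3. The third replicate was the highest in both groups, and the groups were separated by a wide gap. Its mean went from 68.2 ± 12.9 to 14.5 ± 5.94 CPM (SD, n = 3 each), so 21.2% was kept. The log2 fold change was -2.07 (standard error 0.25).

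The 3 members that came next by fall had nearly the same counts as each other and a different pattern over the libraries. The highest of them in siCTRL had 83.6, 99.3 and 50.6 CPM in siCTRL replicates 1 to 3. It had 15.7, 18.5 and 15.6 CPM in siSetdb1 replicates 1 to 3. Here siCTRL replicate 3 lay far below siCTRL replicate 2 and close to the minimum of 50 CPM, whereas the siSetdb1 libraries differed little. The log2 fold change was -2.06 (standard error 0.26). The next 2 by fall had log2 fold changes of -1.99 each, with standard errors of 0.32, the largest among the members. The first of these had 54.5, 54.2 and 52.6 CPM in siCTRL, which are close together. It had 9.61, 7.21 and 19.6 CPM in siSetdb1 replicates 1 to 3, so that the third replicate held 2.72 times as much as the second. The member ranked 7 by fall had 98.8, 89.4 and 168 CPM in siCTRL and 22.8, 21.5 and 41.1 CPM in siSetdb1. In it replicate 3 was again the highest of both groups.

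Among the siCTRL libraries, replicate 3 departed from the others in some members. It lay at least 1.2-fold above the mean of the other siCTRL libraries for 7 members and at least 1.2-fold below it for 7. Over all 64 members it was the lowest siCTRL library for 37 and the highest for 20.

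The most abundant member was uc009ilj.2. It had 482, 496 and 656 CPM in siCTRL replicates 1 to 3. It had 128, 121 and 183 CPM in siSetdb1 replicates 1 to 3. As for uc007brp.2, replicate 3 was the highest in both groups. The mean went from 545 ± 97.0 to 144 ± 34.1 CPM (SD, n = 3 each), and the log2 fold change was -1.75 (standard error 0.17). The members ranked 2 to 4 by level had the same values to within 2% in every library. After these 4, levels dropped. The member ranked 5 by level had 204, 206 and 200 CPM in siCTRL. It had 59.0, 50.5 and 75.3 CPM in siSetdb1. For comparison, the most abundant transcript of any kind in a siCTRL library lay between 5388 and 8662 CPM, so the members were not among the very highest transcripts.

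The lowest siCTRL value was between 50 and 75 CPM for 31 members, between 75 and 100 CPM for 15, between 100 and 150 CPM for 8, between 150 and 300 CPM for 6, and over 300 CPM for the 4 near-identical members led by uc009ilj.2. The members made up 1.98%, 1.99%, 1.16%, 1.11% and 1.76% of the abundant transcripts in these ranges, from the lowest to that from 300 to 1000 CPM. These ranges held 1563, 755, 689, 540 and 227 abundant transcripts, so the ranges under 100 CPM held most of the members and also most of all abundant transcripts. None of the 40 transcripts with at least 1000 CPM in every siCTRL library was a member. The 3 members nearest to the minimum had 50.4, 50.5 and 50.6 CPM in their lowest siCTRL library. The nearest transcripts outside it, with the fold part of the rule met, had 48.5, 48.2 and 45.3 CPM. At the other threshold, the ratio of the highest siSetdb1 to the lowest siCTRL CPM was 0.4996, 0.4966 and 0.4965 for the nearest members. It was 0.5001, 0.5006 and 0.5009 for the nearest abundant transcripts that were not members.

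Some members had nearly the same counts as others. Members whose CPM were within 2% of each other in every library formed 45 sets, of which 34 held a single member, 5 held 2, 4 held 3 and 2 held 4. Members of a set were not taken as independent observations, and whether they share reads was not tested. With tolerances of 1% and 5% there were 46 and 43 sets. Counting 1 member of each set, the summed level went from 4739 ± 51.1 CPM in siCTRL to 1532 ± 352 CPM in siSetdb1 (SD, n = 3 each), so that 32.3% was kept, close to the 31.0% over all members. Of the 64 members, 39 stood next to another row that met the rule in the order of the count table, and 25 stood alone.

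Rows directly before or after a member were also examined where they did not themselves meet the rule. As neighbours may have counts like those of the member, these rows are not independent of the selection. There were 80 such rows, of which 63 passed the filter on low counts. Of these, 32 (50.8%) were called lower after Setdb1 knockdown (the same edgeR fit and adjustment), beside 19.7% of all transcripts tested, and 9 (14.3%) were called higher, beside 20.2%. Their median log2 fold change was -0.47, with a range from -2.08 to 2.02, so that a row next to a member could also be higher in siSetdb1. They were mostly low, with a median of 13.6 CPM in siCTRL, and 7 of the 80 had at least 50 CPM in every siCTRL library. Whether a row and its neighbour share reads or belong to one gene was not tested.

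The siSetdb1 libraries differed in how much of the members they kept. Relative to the siCTRL mean, the median member kept 30.9% in siSetdb1 replicate 1, 24.9% in replicate 2 and 41.9% in replicate 3. The lowest value of a member was 17.7%, 13.4% and 20.0% in these libraries, and the highest was 45.7%, 44.6% and 48.8%. These values are in CPM, and the medians after TMM normalisation were 35.3%, 29.3% and 45.0%. Among the siSetdb1 libraries, replicate 3 was the highest for 59 of 64 members and replicate 2 was the lowest for 57. After TMM normalisation these numbers were both 55. Between replicates 3 and 2 the ratio of CPM had a median of 1.52 over the members and reached 2.73. It was 2 or more for 15 members and under 1 for 4.

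**Figure D3:**
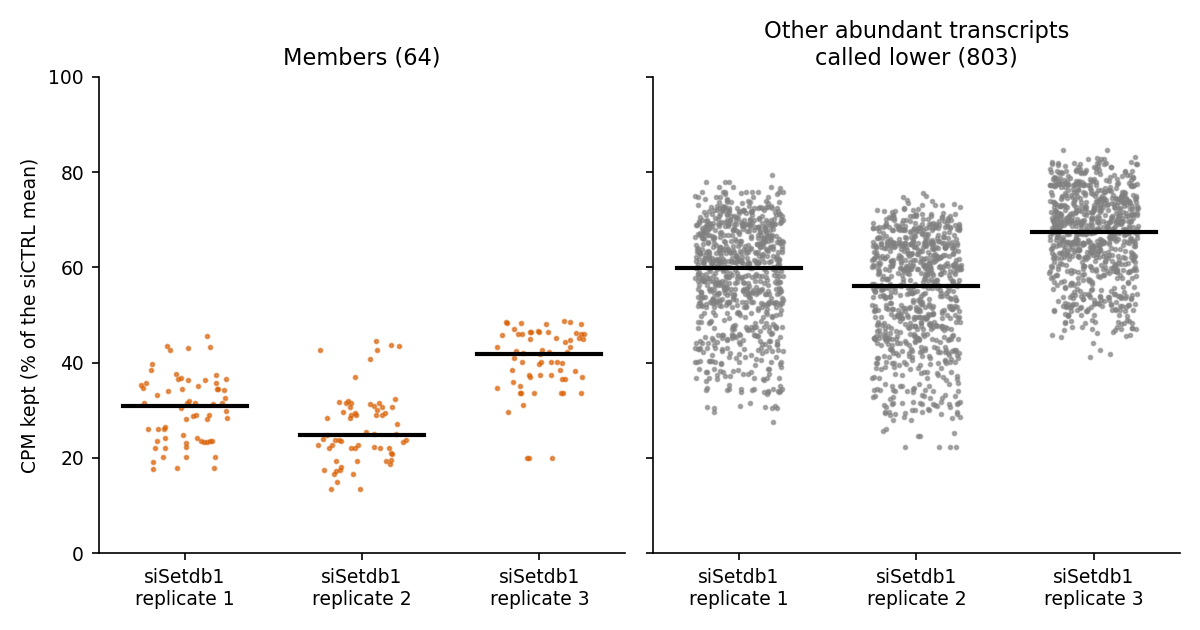
CPM of each transcript in each siSetdb1 library as a percentage of its mean in siCTRL, for the 64 members (left) and for the 803 other abundant transcripts called lower (right), with each point a transcript and each bar the median. The medians of the members are 30.9%, 24.9% and 41.9% and those of the other transcripts 59.9%, 56.1% and 67.5%, and in both panels replicate 3 is the highest.

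Most of the other abundant transcripts that were called lower also had replicate 3 as the highest siSetdb1 library. There were 803 of them, 21.4% of the abundant transcripts that were not members. That number was 488 without siSetdb1 replicate 1, 524 without siCTRL replicate 1, 530 without siCTRL replicate 2 and 1431 with library totals only. Replicate 3 was the highest of the siSetdb1 libraries for 690 of the 803 (85.9%), against 92.2% of the members, and after TMM normalisation for 67.7% against 85.9%. Over all 3750 other abundant transcripts, called lower or not, replicate 3 was the highest for 45.9%, and for 28.1% after TMM normalisation. The 803 transcripts called lower kept a median of 69.2% of the siCTRL level after TMM normalisation, and all 3750 a median of 101%. In CPM these medians were 61.3% and 89.3%. The coefficient of variation among the siSetdb1 libraries had a median of 22.6% for the members and 10.6% for these 803 transcripts. Among the siCTRL libraries it had a median of 4.42% and 5.62%. In the siSetdb1 group, then, the members differed more between libraries than in siCTRL, on both scales (17.8% against 6.17% after TMM normalisation). These are descriptions, since the rule limits the spread through its most extreme libraries.

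Some members were even across the siSetdb1 libraries. The ratio of replicate 3 to replicate 2 was under 1.2 for 9 members, which formed 6 sets. They included both the 3 members ranked 2 to 4 by fall and those with the smallest falls. The member with the smallest fall had 72.9, 74.9 and 71.2 CPM in siCTRL. It had 31.7, 31.8 and 34.3 CPM in siSetdb1. Neither group varied much, and the log2 fold change of -0.99 had a standard error of 0.08.

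The libraries of equal replicate number deviated together over all transcripts, but so did siCTRL replicate 1 with siSetdb1 replicate 2 and siCTRL replicate 2 with siSetdb1 replicate 1, and only number 3 stood apart from the others. The share kept was also computed within each number, called a pair here, although numbers 1 and 2 were not shown to be matched. The median member kept 29.9%, 24.5% and 44.6% in pairs 1 to 3. The third pair was the highest for all 64 members, and for 63 of them after TMM normalisation. It was the highest for 745 of the 803 other transcripts called lower, and for 1873 of all 3750 other abundant transcripts. The coefficient of variation of the share over the pairs had a median of 25.6% over the members, against 22.6% when each siSetdb1 library was divided by the siCTRL mean, so that pairing did not narrow the spread. The named members were closer to even by pair. The share was 20.1%, 16.5% and 25.6% for uc007brp.2 and 26.6%, 24.3% and 27.9% for uc009ilj.2.

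Replicate 3 also set the size of the group. Without siSetdb1 replicate 3, 199 transcripts met the rule, and without siCTRL replicate 3, 124 did. Without any one of the other libraries the number was between 64 and 69. All 64 members were among the transcripts that met the rule in each of these cases, as its form ensures. After TMM normalisation 21 transcripts met the rule, all of them members and forming 16 sets, and with DESeq2 size factors 21 did as well. For the 64 members the ratio of the highest siSetdb1 to the lowest siCTRL value lay between 0.35 and 0.60 after TMM normalisation. It was above 0.5 for 32 members, and 13 members fell under 50 CPM in a siCTRL library. Both uc007brp.2 and uc009ilj.2 were among the 21.

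**Figure D4:**
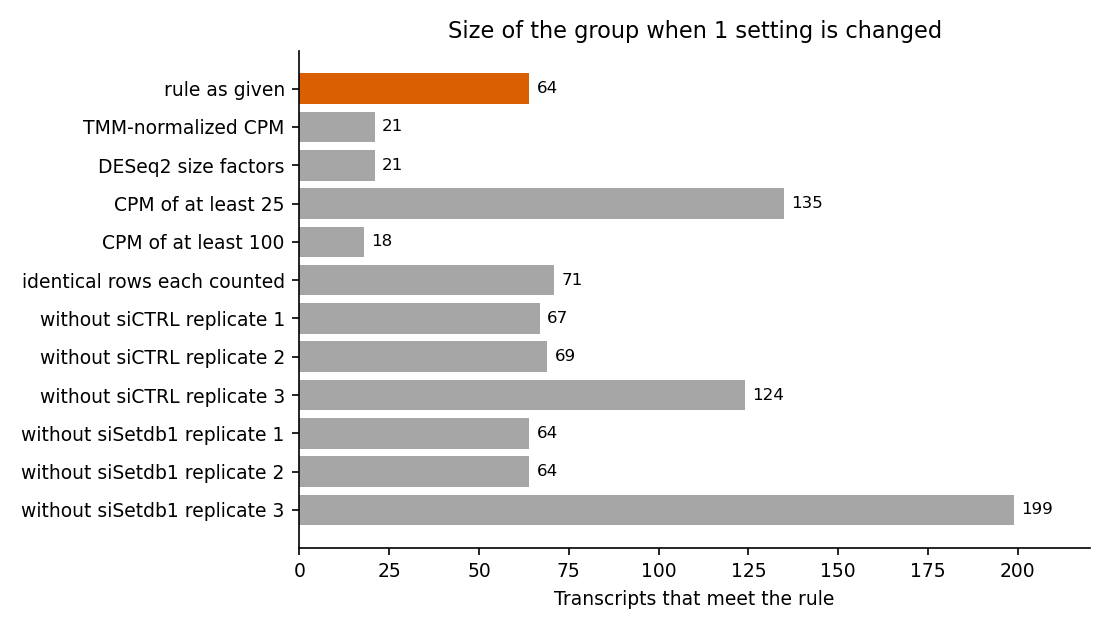
Number of transcripts that meet the rule as given (orange, 64) and with 1 setting changed (grey), on an axis that starts at 0. The number is 21 after TMM normalisation or with DESeq2 size factors, 18 with at least 100 CPM and 199 without siSetdb1 replicate 3. Not drawn are the other settings of the ratio, at most 0.25 (0 transcripts) and at most 0.75 (538).

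The reverse rule, with the roles of siCTRL and siSetdb1 exchanged, was met by 106 of the 3435 transcripts with at least 50 CPM in every siSetdb1 library. The difference in CPM scale between the groups acts on the 2 rules in opposite directions, so their counts were not compared with a test.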

How the data were processed

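The authors sequenced 51-base single reads from stranded libraries of polyadenylated RNA, aligned them to mm9 with Tophat 1.4.1.1 and assigned them to exons with HTSeq-count in its intersection-nonempty mode. The authors deposited whole-number read counts per UCSC transcript, without normalisation. Their separate table of deregulated transcripts holds their own normalised counts, fold changes and p-values, and was not used. Library totals are sums over transcripts and lie between 98100142 and 228871500 counts. Rows with identical counts each enter these totals. As whether rows share reads was not tested, a total may differ from the number of reads assigned.

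CPM were computed from library totals. All transcripts were tested with edgeR 4.0.16 (limma 3.58.1, R 4.3.3), with TMM factors, filterByExpr, the quasi-likelihood test of siSetdb1 against siCTRL without covariates, and Benjamini-Hochberg adjustment at 0.05. The standard error of a log2 fold change was taken as its absolute value divided by the square root of the F statistic. The code was tested on simulated data. The alternatives were DESeq2 1.42.0, RLE factors, library totals only, no filter, identical counts once, a replicate block, other settings of the rule and each library left out in turn. Deviations from the group means, over 34247 transcripts, correlated between libraries of equal number in the labels (r = 0.250, 0.458 and 0.670), all over 0.1. The share kept was therefore also computed by number. Numbers 1 and 2 were not distinct in this check, since siCTRL replicate 1 correlated with siSetdb1 replicate 2 at 0.384 and siCTRL replicate 2 with siSetdb1 replicate 1 at 0.407. The check therefore does not show that numbers 1 and 2 are pairs. Number 3 correlated negatively with the other numbers (r between -0.576 and -0.421). Deviations within a group cancel by construction, so these negative values are not separate from the 0.670 of number 3. Transcripts are not independent replicates.

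The 2 transcripts named are the member with the largest fall in the edgeR fit to all 6 libraries and the one with the highest siCTRL mean. Members and lists were chosen with earlier results of these data known. Lists by gene symbol could not be applied. Sets of members with like counts, neighbouring rows and the share kept per library were added after the data were seen. Figures were drawn with matplotlib 3.10.9 in Python 3.11.15, from tables handled with pandas 2.3.3 and numpy 2.4.6.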

Additional observations from a re-analysis of the deposited data

How the results depend on the processing

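All 64 members were called lower in each of the 12 other fits, and their median log2 fold change lay between -1.63 (without siSetdb1 replicate 3) and -1.34 (without siSetdb1 replicate 2). The members were selected on this contrast, so these calls describe the selection and are no evidence for it. The fewest transcripts called lower were 3732 of 34613 tested, without siSetdb1 replicate 1. The most were 10349 of 34247, with library totals only. The log2 fold change of uc007brp.2 lay between -2.40 and -1.89 and that of uc009ilj.2 between -1.92 and -1.62. Another member fell more than uc007brp.2 without siCTRL replicate 3 (-2.31 against -1.93). The same held without siSetdb1 replicate 1 (-2.01 against -1.96), replicate 2 (-2.17 against -1.89) or replicate 3 (-2.46 against -2.40). In the remaining fits uc007brp.2 fell most. The replicate block gave a median of -1.41 and changed no call of a member. It raised all transcripts called lower from 6750 to 9866, and the other abundant ones from 803 to 1092.

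The number of members depended on the settings of the rule. It was 21 after TMM normalisation, 21 with DESeq2 size factors, 135 with at least 25 CPM, 18 with at least 100 CPM, 0 with at most 0.25 of the lowest siCTRL CPM and 538 with at most 0.75 of it. It ranged from 64 to 199 when 1 library was omitted. All transcripts called lower numbered 6750, 10349 with library totals only, and from 3732 to 8096 when 1 library was omitted. The count moved by over 1.5 times without siSetdb1 replicate 1 (3732) and without siCTRL replicate 1 (4311). Of all calls, 50.6% were higher after TMM normalisation and 31.0% with library totals only. The number of neighbouring rows called lower ranged from 24 without siSetdb1 replicate 1 to 36 with library totals only or the replicate block. In these fits all transcripts called lower numbered 3732, 10349 and 9866. After TMM normalisation the summed level of the members was 7058, 7140 and 7174 CPM in siCTRL replicates 1 to 3. Depth did not limit the members, whose counts were all over 1000.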
